A study of Mus musculus with 30 samples.

Results

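The genes of the proteasome, the protease that degrades ubiquitin-tagged proteins, were examined in 3 myeloid cell types sorted from the mouse brain after ischemic stroke. Members were the genes whose platform symbol began with Psma, Psmb, Psmc or Psmd followed by a digit. That pattern matched 39 genes with 1 transcript cluster each, among 19479 named genes and 22103 clusters on the array. Of these, 38 encode proteasome subunits or chaperones of its regulatory particle. The remaining match, Psmc3ip, encodes a partner protein of meiotic recombination and was left out of every count. The 38 comprised 8 genes of the alpha ring, 4 structural genes of the beta ring, 2 standard catalytic subunits (Psmb6 and Psmb7), 3 immune catalytic subunits (Psmb8, Psmb9 and Psmb10), the thymus catalytic subunit Psmb11, 6 base ATPases, 3 other base subunits, 8 lid subunits and 3 assembly chaperones. The standard catalytic subunit Psmb5 was not analysed here, so the standard side consisted of 2 genes.

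Proteins marked with ubiquitin are bound by the regulatory particle, whose base holds a ring of ATPases that unfold the substrate and whose lid removes the ubiquitin. The unfolded chain is fed into the core particle, a barrel of outer alpha rings and inner beta rings, where the catalytic beta subunits cut it into peptides. In immune cells and under interferon gamma, Psmb9, Psmb8 and Psmb10 replace Psmb6, Psmb5 and Psmb7 in newly built core particles. The resulting immunoproteasome is known for supplying peptides to MHC class I molecules.

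All mice were male C57BL/6 animals aged 8 to 10 weeks in which MCAo blocked the middle cerebral artery for 45 min, with tissue taken after 48 h of reperfusion. They were of genotype TREM1+/+ (WT) or TREM1-/- (KO), TREM1 being a myeloid surface receptor known to boost inflammatory signals. The labels do not state which part of the gene was deleted, which cells lacked it, or whether animals were pooled. From the ischemic hemisphere, neutrophils (CD45Hi, CD11b+ and Ly6G+), macrophages (CD45Hi, CD11b+ and Ly6G-) and microglia (CD45Lo and CD11b+, with a gate that the labels also give as Ly6G+) were sorted. The 30 arrays comprised 4 WT and 5 KO neutrophil samples, 3 WT and 6 KO macrophage samples, and 6 WT and 6 KO microglia samples, which the labels call biological replicates. No uninjured brain was in the groups, so levels could not be compared with a resting state.

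Trem1 measured 16.82 to 17.51 log2 units in WT neutrophils against 15.12 to 16.39 in KO neutrophils, so these groups did not overlap, although the KO signal remained bright. Its ranges overlapped between genotypes in macrophages (13.59 to 14.19 in WT, 12.81 to 14.39 in KO) and in microglia (7.62 to 10.44 and 7.50 to 9.21). Per array, the mean of 9 measured neutrophil markers was 12.61 to 16.3 in neutrophil arrays and 6.36 to 10.38 elsewhere, with the highest of the latter in KO microglia array 2. Among microglia the next was KO microglia 4 at 8.22 log2 units, and macrophage arrays reached 8.4. The mean of 10 macrophage markers was 15.13 to 15.44 in macrophages, 12.59 to 13.77 in neutrophils and 8.95 to 10.54 in microglia. Microglia markers averaged 13.98 to 15.08 in microglia and 8.1 to 10.8 in the other cells. WT neutrophil arrays stood apart: each correlated with its own group at 0.933 to 0.9615 on average, where arrays of every other group reached at least 0.9741. WT neutrophil 4 also carried connective tissue markers at 12.17 log2 units, where WT neutrophils 1 to 3 had 8.29 to 9.36.

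Nearly all members were bright in all 3 cell types. The exceptions were Psma8, an alpha subunit of the testis, and Psmb11, the thymus subunit, whose means stayed below 6.69, the median of all cluster means, in every group. Intensities of different genes come from different probes and are compared only between samples, gene by gene.

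**Figure D1:**
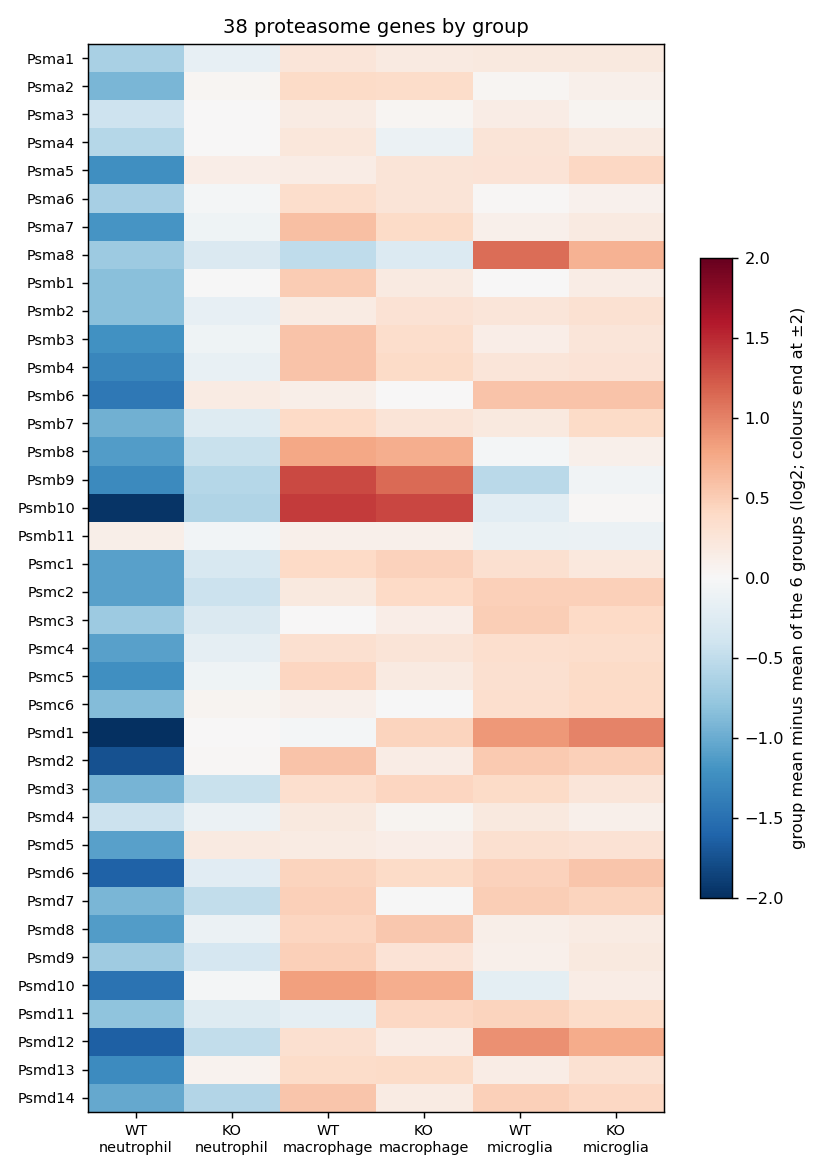
Mean log2 intensity of the 38 proteasome genes (rows, in order of symbol) in the 6 groups (columns), each shown as the difference from the gene's mean over the 6 groups. The WT neutrophil column is the lowest for most genes, and Psmb8, Psmb9 and Psmb10 are highest in both macrophage columns.

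The first comparison asked whether infiltrating macrophages and resident microglia differ in their proteasome genes. In WT mice 3 of 38 members were higher in macrophages at an adjusted p under 0.05 (limma, Benjamini-Hochberg over all clusters), and they were the 3 immune catalytic subunits Psmb8, Psmb9 and Psmb10. Across the array 9.62% of clusters were called higher and 27.9% lower in this comparison. The KO arrays, which shared no sample with the WT ones, gave 3 of 38 members higher, again Psmb8, Psmb9 and Psmb10, against 11.8% of all clusters called higher and 31.4% lower. The remaining 33 members other than Psma8 and Psmb11 had a median difference of 0.01 log2 units in WT and -0.05 in KO mice, beside medians over all clusters of -0.25 and -0.21.

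Psmb9, the immune counterpart of Psmb6, measured 13.46, 13.28 and 13.28 log2 units in the 3 WT macrophage arrays, and the 6 WT microglia arrays had a lowest value of 10.40, a median of 11.77 and a highest of 11.85. All macrophage arrays lay above all microglia arrays. The difference was 1.85 log2 units (SE 0.37, 3.6-fold, limma adjusted p = 0.000202). In KO mice macrophages ranged from 12.79 to 13.68 (median 13.12) and microglia from 11.47 to 12.94 (median 11.76), which overlapped through KO microglia 2. The KO difference was 1.20 (SE 0.30, limma adjusted p = 0.00165).

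Psmb10, the immune counterpart of Psmb7, measured 11.11, 11.66 and 11.52 log2 units in WT macrophages and 9.13 to 10.16 (median 9.98) in WT microglia. In KO mice the values were 11.11 to 11.61 (median 11.36) in macrophages and 9.82 to 10.78 (median 9.91) in microglia. Psmb10 did not overlap between the cell types in either genotype. It was higher in macrophages by 1.62 log2 units in WT (SE 0.36, 3.07-fold, limma adjusted p = 0.00076) and by 1.32 in KO mice (SE 0.29, adjusted p = 0.000589).

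For Psmb8, which takes the place of Psmb5, WT macrophages measured 13.00, 13.49 and 13.31 log2 units and WT microglia 12.26 to 12.98 (median 12.37). The KO arrays measured 13.06 to 13.46 (median 13.21) in macrophages and 12.14 to 13.25 (median 12.54) in microglia. The WT groups were separate, while KO microglia 2 reached into the macrophage range. The difference was the smallest of the 3, at 0.81 log2 units in WT (SE 0.20, 1.75-fold, limma adjusted p = 0.00218) and 0.63 in KO mice (SE 0.17, adjusted p = 0.00276).

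Psmb6, whose site cuts after acidic residues, was at 13.89, 14.99 and 14.60 log2 units in WT macrophages and at 14.46 to 15.44 (median 14.93) in WT microglia. These ranges overlapped, and the difference of -0.45 did not pass (95% interval -1.05 to 0.15, limma adjusted p = 0.236). KO macrophages measured 14.09 to 14.57 (median 14.41) and KO microglia 14.50 to 15.39 (median 15.00), a difference of -0.57 that narrowly missed the threshold (adjusted p = 0.0542). Psmb7, whose site cuts after basic residues, measured 13.58, 13.99 and 14.06 log2 units in WT macrophages and 13.08 to 14.25 in WT microglia. Its differences were 0.21 in WT (adjusted p = 0.578) and -0.13 in KO mice (adjusted p = 0.695).

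**Figure D2:**
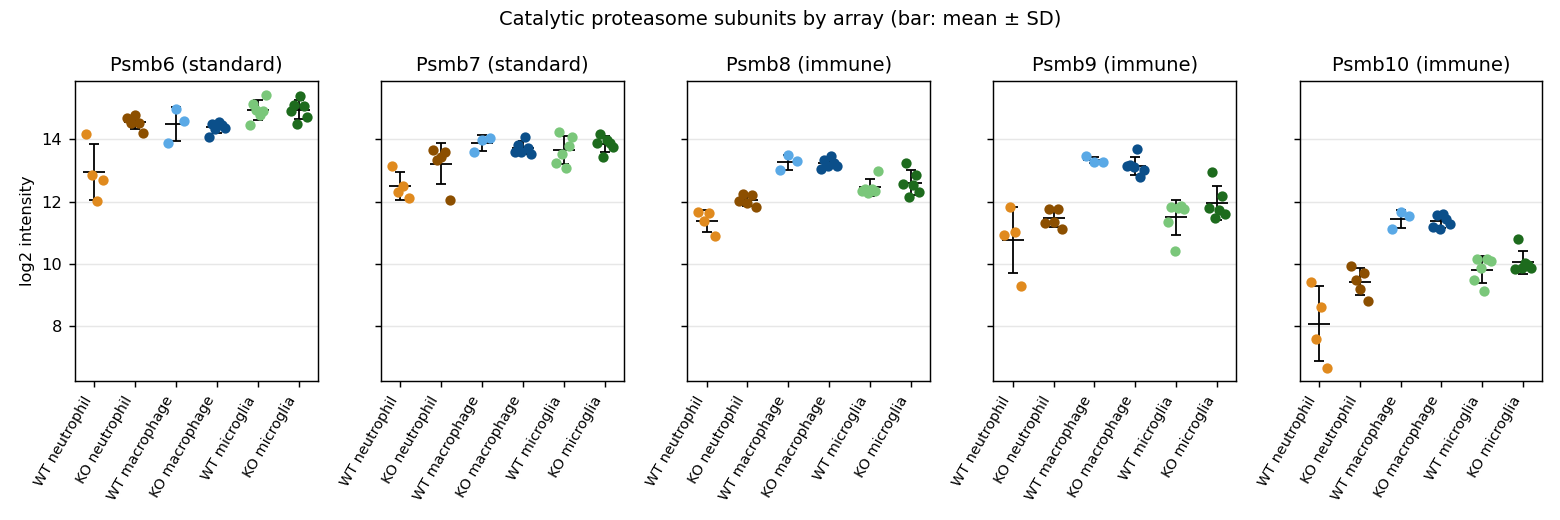
Log2 intensity of Psmb6 and Psmb7 (standard) and Psmb8, Psmb9 and Psmb10 (immune) on each array, by group, with the mean and SD as bars. Psmb8, Psmb9 and Psmb10 are highest in both macrophage groups, and Psmb6 is lowest and most spread in WT neutrophils.

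To follow the balance of both sets on each array, the mean log2 level of Psmb6 and Psmb7 was subtracted from that of Psmb8, Psmb9 and Psmb10. Differences in this index between groups can be read, but not its sign, since the genes were measured by different probes. The index averaged -1.51 ± 0.26 (SD, n = 3) in WT and -1.47 ± 0.08 (n = 6) in KO macrophages, against -3.05 ± 0.25 (n = 6) in WT and -2.87 ± 0.31 (n = 6) in KO microglia. Neutrophils lay near the microglia, at -2.66 ± 0.71 (n = 4) in WT and -2.90 ± 0.28 (n = 5) in KO mice. In WT mice pairs within the index went opposite ways against microglia: 1.27 for Psmb9 minus Psmb6 and -0.59 for Psmb10 minus Psmb7. In KO mice these pairs differed by -0.08 and 0.01. Macrophages thus exceeded microglia by 1.54 log2 units in WT and 1.40 in KO mice, and the arrays of these cell types did not overlap in either genotype.

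Beyond the immune subunits, few members differed between macrophages and microglia. In WT mice 2 of 38 were lower in macrophages: the dim Psma8 (-1.62, limma adjusted p = 0.00136) and the lid scaffold subunit Psmd11 (-0.62, adjusted p = 0.04), which measured -0.29 without WT macrophage 1 (adjusted p = 0.398). Psma8 was also the 1 member lower in KO mice (-0.95, adjusted p = 0.0147), whereas Psmd11 measured 0.04 there. Counting arrays instead, 4 members were higher without overlap in WT mice (Psmb1, Psmb8, Psmb9 and Psmb10, against 8.79% of all clusters) and 2 in KO mice (Psmb10 and the lid subunit Psmd8, against 7.42%). Lower without overlap were 1 member, Psma8, in WT mice (24.9% of all clusters) and 0 in KO mice (17.6%). When each array was centred on its median, which removes the lower overall median of macrophage arrays, 11 members were higher and 1 lower in WT mice, and 6 and 0 in KO mice. Centring raises the difference of every cluster in this comparison. The share of all clusters called after centring is not given, so these counts are not read as a result about the members. Psmb8, Psmb9 and Psmb10 passed in both genotypes under each alternative tried, with differences from 0.54 to 2.25 log2 units. Without KO microglia 2 and 4, whose neutrophil markers were raised, the KO differences were 0.77 for Psmb8, 1.40 for Psmb9 and 1.49 for Psmb10.

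**Figure D3:**
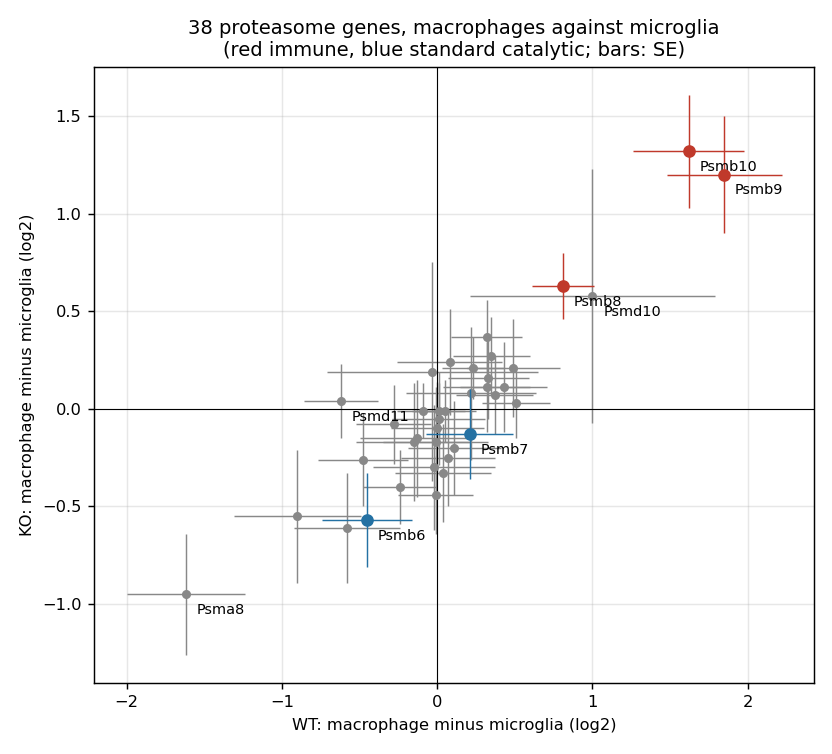
Macrophage minus microglia difference (log2) of each of the 38 proteasome genes in WT (x axis) and KO mice (y axis), with SE bars. Psmb8, Psmb9 and Psmb10 (red) lie apart at the upper right, Psmb6 and Psmb7 (blue) lie near 0 or below it, and Psma8 is at the lower left.

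Markers of other cells also moved with this comparison. The mean of 6 dendritic cell markers was 7.43 to 7.81 log2 units in WT and 6.99 to 7.94 in KO macrophage arrays, against 5.75 to 6.05 and 5.73 to 6.00 in microglia, and 3 of the 6 (Zbtb46, Xcr1 and Clec9a) stayed below the median cluster in macrophages. The 5 NK cell markers averaged 7.26 in WT macrophage 1 against 4.79 and 4.93 in the other WT macrophage arrays. Their part in the higher Psmb8, Psmb9 and Psmb10 was not tested. In sorted bulk samples a different mix of cells and a different amount of RNA per cell cannot be told apart.

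Genes that work with the immunoproteasome did not all move with it. Psme1 and Psme2, which form the interferon-inducible activator cap, differed between macrophages and microglia by 0.20 and -0.14 log2 units in WT mice (limma adjusted p = 0.532 and 0.644) and by 0.12 and 0.01 in KO mice, and 0 of 5 activator and inhibitor genes passed in either genotype. Tap1, the peptide transporter gene next to Psmb9, differed by 0.73 in WT (adjusted p = 0.147) and 0.24 in KO mice (adjusted p = 0.584). Of 11 measured MHC class I presentation genes, 1 was higher in WT macrophages, the heavy chain gene H2-D1 (1.25, adjusted p = 0.00299), and 2 were lower, the chaperone Canx (-1.0) and the peptide editor Tapbpl (-0.89). In KO mice H2-D1 (1.21) and H2-K1 (0.51) were higher and Tapbpl (-1.20) was lower. Of 8 interferon gamma pathway genes, 4 were higher in WT and 5 in KO macrophages, including the kinase Jak2 (2.24 and 2.18), the transcription factors Irf1 (1.54 and 1.43) and Irf2 (0.83 and 1.46), and the receptor chain Ifngr1 (1.12 and 0.84), with 0 lower in both.

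Among 5 chaperones that assemble the core particle, Psmg4 was higher in macrophages by 1.59 log2 units in WT (limma adjusted p = 0.000235) and 1.03 in KO mice (adjusted p = 0.00197). Of the other chaperones in this list, Psmg1 (-0.91) and Psmg2 (-1.05) were lower in KO macrophages and measured -0.50 and -0.90 in WT mice, which did not pass. Pomp, which acts while the beta ring is built, differed by 0.02 and 0.19. Sem1, a small lid subunit whose symbol lies outside the pattern, was higher by 0.78 in WT and 0.66 in KO macrophages (adjusted p = 0.000357 and 0.000185). Nfe2l1, the transcription factor that raises proteasome gene expression when proteasomes are impaired, was lower in macrophages, at -0.72 in WT (adjusted p = 0.0144) and -0.78 in KO mice (adjusted p = 0.00136).

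The promoters of the catalytic genes were read for interferon-type and other motifs, since Psmb8, Psmb9 and Psmb10 differed between macrophages and microglia and Psmb6 and Psmb7 did not pass. RefSeq windows of GRCm38.p6, from 250 bases before to 50 bases after the start site, were held for 31 of the 38 genes, and 3 are shown up to the base before the start site, 5′ to 3′ on the gene's strand, with 1 match in capitals. Psmb8 (chr17:34197945-34198194, plus strand) held a GAS element, the site of STAT factors, searched as TTCNNNGAA and starting at -97 from the start site. Psmb9 (chr17:34187331-34187580, minus strand) held a CCAAT box, read on its opposite strand, starting at -8. Psmb6 (chr11:70525107-70525356, plus strand) held the core of an antioxidant response element, TGACNNNGC, starting at -9.
Psmb8: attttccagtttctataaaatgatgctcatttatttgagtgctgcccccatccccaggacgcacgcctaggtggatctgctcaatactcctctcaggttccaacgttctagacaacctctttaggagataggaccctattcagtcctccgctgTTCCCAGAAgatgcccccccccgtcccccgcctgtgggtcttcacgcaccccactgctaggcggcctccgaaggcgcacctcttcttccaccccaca
Psmb9: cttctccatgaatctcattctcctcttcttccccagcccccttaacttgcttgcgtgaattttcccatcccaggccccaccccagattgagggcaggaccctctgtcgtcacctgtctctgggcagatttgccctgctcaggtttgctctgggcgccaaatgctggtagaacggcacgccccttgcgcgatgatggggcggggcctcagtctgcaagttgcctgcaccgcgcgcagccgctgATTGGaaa
Psmb6: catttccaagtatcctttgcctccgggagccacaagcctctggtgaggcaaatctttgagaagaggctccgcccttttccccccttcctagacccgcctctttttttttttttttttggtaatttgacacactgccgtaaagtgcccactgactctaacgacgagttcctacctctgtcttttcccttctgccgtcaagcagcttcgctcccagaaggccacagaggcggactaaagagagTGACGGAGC

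The windows of Psmb9 and Tap1 lie on opposite strands of chromosome 17 and share 275 bases, so the printed Psmb9 sequence is largely the Tap1 promoter too. On both strands, the GAS letters occurred in 2 of the 31 member genes (Psmb8 and Psmd2) and in 8.3% of 32851 windows, and the antioxidant core in 4 members (Psmb6, Psmc6, Psmd12 and Psmd9) and in 12.4% of windows. An interferon-stimulated response element, read as GAAA and again GAAA with 2 bases between, was in 3 members (Psmb3, Psmd4 and Psmd9) and in 3.44% of windows, and the letters were not in the windows of Psmb8, Psmb9 and Psmb10. ETS letters, CCGGAAG, were in 10 of the 31 members (32.3%) beside 8.86% of windows, and CCAAT in 13 (41.9%) beside 37.4%. These matches describe letters in a window and were not tested for binding.

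WT neutrophils had lower proteasome gene levels than WT microglia and macrophages, across nearly every role. Of 38 members, 32 were lower in WT neutrophils than in WT microglia and 0 higher, where 32.3% of all clusters were called lower and 22% higher. Against WT macrophages 32 were lower and 0 higher, where 22% of all clusters were called lower and 29.6% higher. Median differences were -1.30 log2 units (2.46-fold) against microglia and -1.38 (2.6-fold) against macrophages. In KO mice 13 members were lower than in microglia (all clusters 32% lower, 13% higher) and 10 lower than in macrophages (15.8% lower, 15.9% higher), with 0 higher in both and medians of -0.46 and -0.44. Both KO counts are read against those shares: 13 of 38 is 34.2% and near the share of all clusters. It became 7 without KO neutrophil 5, 6 after quantile normalization over all arrays and 4 after median centring. The shares of all clusters in those alternatives are not given. With the level of broadly expressed clusters, described below, as a covariate, the direction turned: WT neutrophils had 7 members higher and 0 lower against microglia and 5 higher and 0 lower against macrophages, and KO neutrophils 10 higher and 0 lower, and 8 higher and 2 lower. That level did not overlap between neutrophil and other arrays, so this fit extrapolates. All 13 and all 10 of the KO calls, from separate arrays, were among the WT calls. With 32 of 38 members called in WT, most of any KO list would fall there. By arrays, 20 members were lower without overlap than in microglia (23.1% of all clusters) and 25 than in macrophages (18.4%) in WT mice, and 3 (21%) and 6 (11%) in KO mice. Comparisons with microglia and with macrophages share the neutrophil arrays and are given side by side, not as independent.

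The biggest gaps to microglia in WT mice were those of Psmd1, Psmd12 and Psmd2, all of the regulatory particle. Psmd1, the large scaffold of the base, measured 11.10, 9.66, 8.54 and 8.53 log2 units in WT neutrophils and 12.04 to 13.00 (median 12.74) in WT microglia. No neutrophil array reached the microglia range. The difference was -3.14 (SE 0.38, limma adjusted p = 3.89e-08), and in KO mice it was -0.98 (adjusted p = 0.0239). The KO difference of Psmd1 did not pass in 4 of 11 fits with a single KO neutrophil or microglia array left out. Psmd2, the base scaffold that docks ubiquitin receptors, measured 11.84, 10.73, 10.98 and 10.40 in WT neutrophils and 13.00 to 13.68 in WT microglia, again without overlap. Its difference was -2.26 in WT (adjusted p = 8.34e-08) and did not pass in KO mice (-0.46, adjusted p = 0.166).

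Lid subunits behaved likewise, with 7 of 8 lower in WT neutrophils against each other cell type. Psmd12, a lid scaffold, measured 12.40, 11.09, 11.16 and 10.19 log2 units in WT neutrophils and 13.31 to 14.22 in WT microglia, without overlap, and differed by -2.54 (limma adjusted p = 6.58e-08). It stayed lower in KO neutrophils, at -1.24 (adjusted p = 0.00104). Psmd6, another lid scaffold, differed by -2.07 in WT (adjusted p = 1.89e-06) and -0.77 in KO mice (adjusted p = 0.0318). Psmd14, the lid enzyme that removes ubiquitin chains, differed by -1.50 in WT and -1.0 in KO mice (adjusted p = 3.8e-05 and 0.00244), and Psmd7, its partner, by -1.40 and -0.94.

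All 6 base ATPases were lower in WT neutrophils than in microglia, from -1.21 for Psmc3 and Psmc6 to -1.56 for Psmc2, and 5 of 6 were lower than in macrophages, where Psmc3 (-0.72, limma adjusted p = 0.0552) did not pass. In KO mice Psmc2 kept a difference of -0.91 to microglia (adjusted p = 0.000573) and -0.83 to macrophages (adjusted p = 0.00264). Alpha ring genes differed less, with 7 of 8 lower against microglia from -0.57 for Psma3 to -1.85 for the dim Psma8, and 4 of 4 structural beta genes were lower, from -0.85 for Psmb1 to -1.55 for Psmb4. Psmd10, an assembly chaperone of the base, was at 11.32, 11.13, 11.08 and 5.10 in WT neutrophils, and its difference of -2.28 to macrophages (limma adjusted p = 0.0274) became -0.76 without WT neutrophil 4 (adjusted p = 0.167).

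The standard catalytic genes were lower in WT neutrophils against both cell types. Psmb6 measured 14.18, 12.87, 12.03 and 12.70 log2 units in WT neutrophils, below the WT microglia range of 14.46 to 15.44, and Psmb7 measured 13.13, 12.30, 12.49 and 12.11. Psmb6 differed from microglia by -2.0 and from macrophages by -1.55 (limma adjusted p = 2.57e-07 and 0.000204), and Psmb7 by -1.16 and -1.37 (adjusted p = 0.000348 and 0.000486). In KO mice Psmb6 measured 14.69, 14.54, 14.77, 14.54 and 14.21, close to the macrophage range of 14.09 to 14.57, with a difference of 0.16 (adjusted p = 0.656). Psmb7 differed from KO macrophages by -0.52 (adjusted p = 0.103) and from KO microglia by -0.64 (adjusted p = 0.0304).

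The immune subunits were lower in neutrophils than in macrophages in both genotypes, with no array of one cell type inside the range of the other. Psmb10 measured 9.41, 7.58, 8.62 and 6.66 log2 units in WT and 9.92, 9.49, 9.18, 9.71 and 8.81 in KO neutrophils, against at least 11.11 in every macrophage array. Its differences were -3.36 in WT (limma adjusted p = 7.76e-08) and -1.94 in KO mice (adjusted p = 1.84e-05). Psmb9 measured 10.93, 11.81, 11.01 and 9.28 in WT and 11.30, 11.76, 11.34, 11.75 and 11.13 in KO neutrophils, and differed by -2.58 and -1.69 (adjusted p = 5.76e-06 and 0.000132). Psmb8 measured 11.65, 11.38, 11.62 and 10.88 in WT and 12.01, 12.24, 11.96, 12.22 and 11.82 in KO neutrophils, and differed by -1.88 and -1.18 (adjusted p = 7.83e-08 and 5.74e-06). Against microglia, Psmb8 differed by -1.07 in WT and -0.55 in KO mice (adjusted p = 1.43e-05 and 0.0101), Psmb10 by -1.75 and -0.63 (adjusted p = 5e-05 and 0.1), and Psmb9 by -0.73 and -0.49, neither of which passed (adjusted p = 0.0656 and 0.212).

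Partner genes were lower as well. Of 5 activator and inhibitor genes, 5 were lower in WT neutrophils than in microglia and 3 lower than in macrophages, and all 5 core assembly chaperones were lower than in microglia. Pomp differed from macrophages by -1.98 in WT and -1.05 in KO mice, Psmg4 by -3.42 and -1.62, Psme1 by -1.69 and -1.25 and the inhibitor Psmf1 by -2.82 and -1.12 log2 units, all with a limma adjusted p under the threshold. Zfand5, a ubiquitin-binding activator of the proteasome, went the other way, at 0.82 in WT and 0.80 in KO mice (adjusted p = 0.00152 and 0.00037).

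Many other bright genes were lower in the neutrophil arrays too. A set of 1984 broadly expressed clusters without proteasome genes was taken, at or above 11 log2 units on every macrophage and microglia array and within 1 unit between the WT means of those cell types. Since that rule used macrophage and microglia arrays, a lower level in neutrophils was favoured by the choice, and 26 of the 38 members met the same rule. Of these clusters 61.5% were lower in WT neutrophils than in microglia (median -0.78) and 58.5% lower than in macrophages (median -0.79), and in KO mice the shares were 40.7% (median -0.35) and 31.9% (median -0.34). Their median level was 12.90, 12.80, 12.70 and 12.41 log2 units on the WT neutrophil arrays, 13.21, 13.07, 13.10, 13.15 and 12.85 on the KO neutrophil arrays, and 13.26 to 13.48 on every other array. On WT neutrophils 1 to 4, 20, 89, 107 and 201 of these clusters lay more than 3 log2 units below their macrophage and microglia mean. The number was 5 to 23 on KO neutrophil arrays and 0 on every other array. What lowered these clusters was not tested. Macrophage markers in neutrophil arrays ranged from 12.59 to 13.77 and microglia markers from 8.7 to 10.8, and their part in the lower proteasome levels was not tested.

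**Figure D4:**
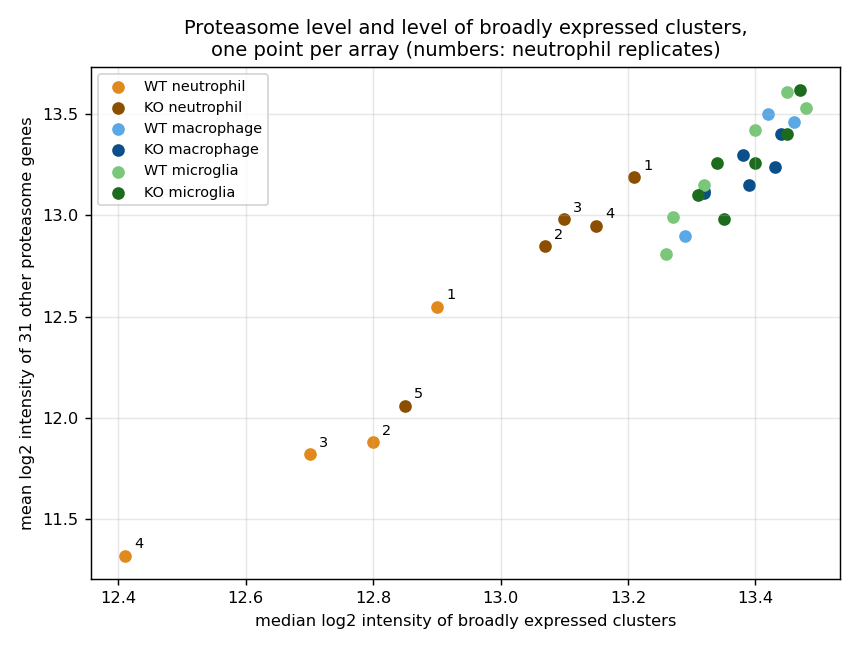
Mean log2 intensity of 31 proteasome genes outside both catalytic sets (y axis) against the median log2 intensity of 1984 broadly expressed clusters (x axis), 1 point per array, with neutrophil arrays numbered. On the x axis all neutrophil arrays lie below all others. KO neutrophils 1 to 4 lie above the WT neutrophil arrays on both axes and within the macrophage and microglia range on the y axis. KO neutrophil 5 lies among the WT neutrophil arrays on both.

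Single neutrophil arrays differed in how far they fell. Of the 36 members other than Psma8 and Psmb11, 18, 32, 31 and 32 lay below every macrophage and microglia array in WT neutrophils 1 to 4, respectively. In KO neutrophils the counts were 1, 5, 4, 3 and 28, so KO neutrophil 5 lay in the range of the WT neutrophil arrays and the other KO arrays did not. No share of all clusters was taken for these counts. Broadly expressed clusters were lower on the neutrophil arrays too, so the counts compare arrays and are not read as particular to the members. The members also varied more between WT neutrophil arrays than elsewhere, with a median SD of 0.57 log2 units (0.38 over all clusters), against 0.44 in KO neutrophils (0.28 over all clusters) and 0.2 to 0.4 in the other groups.

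Loss of TREM1 was compared within each cell type. In neutrophils 21 of 38 members (55.3%) were higher in KO than in WT and 0 lower, where 10.7% of all clusters were called higher and 9.14% lower. The median difference of the members was 0.80 log2 units (1.74-fold), beside -0.13 over all clusters. Among the broadly expressed clusters 38.4% were higher (median 0.43), and their rule used no neutrophil array. The calls spread over all roles except the thymus subunit: 3 of 8 alpha ring genes, 4 of 4 structural beta genes, 1 of 2 standard and 2 of 3 immune catalytic genes, 4 of 6 ATPases, 2 of 3 other base genes, 4 of 8 lid genes and 1 of 3 assembly chaperones rose.

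This count depended on the arrays and the model. Shares of all clusters are not given for the alternative fits, so their counts show only how calls of the members moved. In a fit on the 9 neutrophil arrays alone, which takes the spread from these arrays only, 3 members passed. There 0 passed without WT neutrophil 4. In the fit on all 30 arrays, 16 passed without WT neutrophil 4 and 28 without KO neutrophil 5. With the level of the broadly expressed clusters as a covariate 0 members passed. That level itself nearly separated the genotypes (12.41 to 12.90 log2 units in WT and 12.85 to 13.21 in KO neutrophils). As 26 of the 38 members also met its rule, this fit cannot tell a change of the members from a change of that level.

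**Figure D5:**
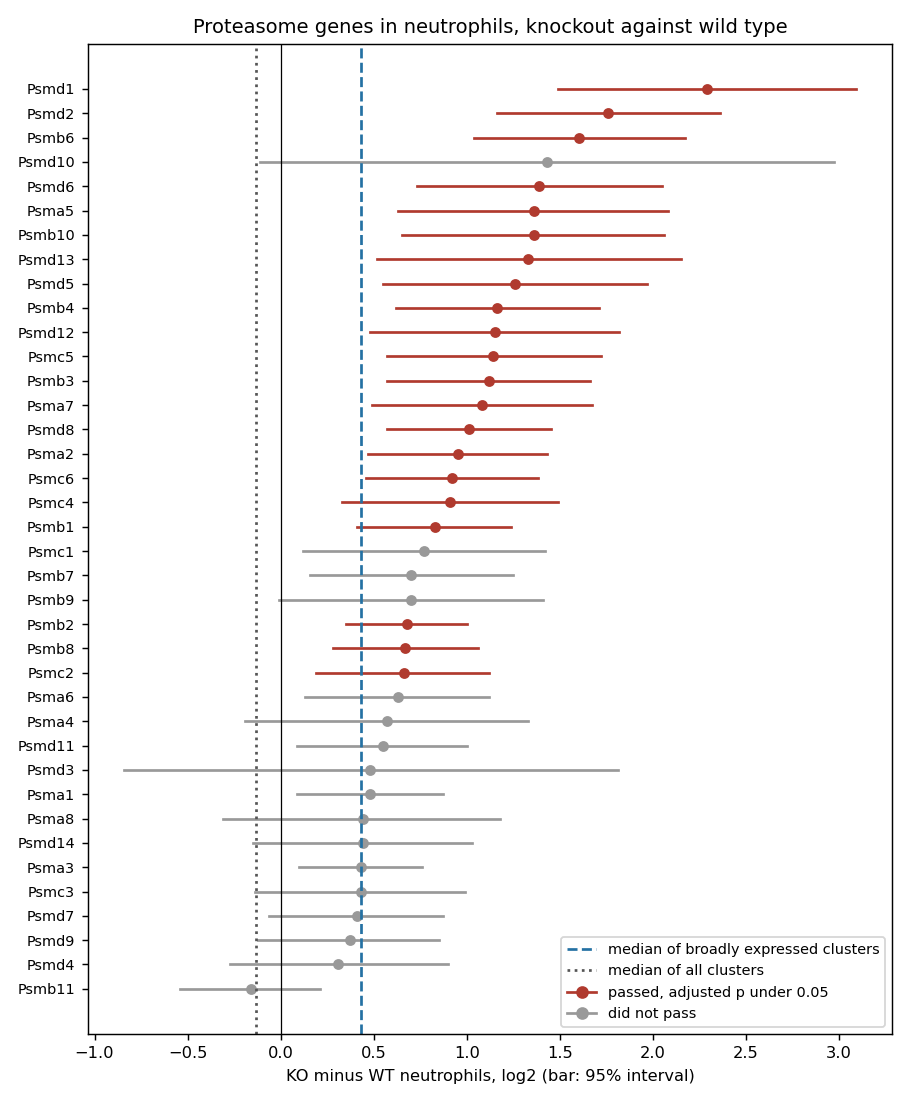
KO minus WT difference in neutrophils (log2, with its 95% interval) of each of the 38 proteasome genes, in order of size. The 21 genes that passed are in red, and dashed and dotted lines mark the medians of the broadly expressed clusters (0.43) and of all clusters (-0.13).

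Base scaffolds and 1 standard catalytic gene rose most. Psmd1 measured 11.10, 9.66, 8.54 and 8.53 log2 units in WT and 12.28, 11.43, 11.96, 12.01 and 11.06 in KO neutrophils. The highest WT array exceeded the lowest KO array, and all 5 KO arrays lay above the WT mean. The difference was 2.29 (SE 0.39, limma adjusted p = 0.000154). Psmd2 measured 11.84, 10.73, 10.98 and 10.40 in WT and 13.34, 12.42, 13.37, 12.82 and 11.78 in KO neutrophils, with KO array 5 just below the highest WT array. It rose by 1.76 (SE 0.29, adjusted p = 0.000121).

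For Psmb6 all 5 KO arrays (14.21 to 14.77 log2 units) lay above all 4 WT arrays (12.03 to 14.18), with KO array 5 and WT array 1 almost level. The rise was 1.60 (SE 0.28, limma adjusted p = 0.000178). Psmb7 was higher by 0.70 and did not pass (adjusted p = 0.0599), and without KO neutrophil 5, whose 12.06 was the lowest of the KO values, it was 0.99 (adjusted p = 0.00241). Psmb6 and Psmb7 thus lay on opposite sides of the threshold, and the difference between them was not tested.

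Of the immune subunits Psmb8 and Psmb10 rose. Psmb10 rose by 1.36 log2 units (SE 0.34, limma adjusted p = 0.00616) with 5 of 5 KO arrays above the WT mean of 8.07, but the groups overlapped through WT array 1 at 9.41. Psmb8 rose by 0.67 (SE 0.19, adjusted p = 0.0149), and its KO arrays (11.82 to 12.24) lay above its WT arrays (10.88 to 11.65). Psmb9 was higher by 0.70 and did not pass (adjusted p = 0.151), and WT neutrophil 2 held the highest value of both groups, 11.81. Without that array the difference was 1.05 (adjusted p = 0.0332). Without WT neutrophil 4 the Psmb9 difference was 0.21, and neither Psmb10 (0.89, adjusted p = 0.0509) nor Psmb8 (0.50, adjusted p = 0.0895) passed. The immune minus standard index moved by -0.25 from WT to KO, within the WT SD of 0.71. Pairs within it moved in opposite directions: Psmb9 minus Psmb6 changed by -0.9 (WT SD 1.33) and Psmb10 minus Psmb7 by 0.65 (WT SD 0.8).

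Other members that rose strongly were Psmd6 of the lid (1.39 log2 units, SE 0.32, limma adjusted p = 0.00335) and Psma5 of the alpha ring (1.36, SE 0.35, adjusted p = 0.0077), whose lowest WT value, 11.91, came from WT neutrophil 4. Without WT neutrophil 4, in the fit on neutrophil arrays alone, Psma5 measured 0.68 (adjusted p = 0.154). Besides Psmb6 and Psmb8, the members higher in KO without overlap were Psmb2, Psmb3 and Psmd8, giving 5 of 38 against 5.52% of all clusters. Psmb3, a structural beta subunit, measured 13.79, 13.46, 13.27 and 12.22 in WT and 14.43, 14.35, 14.31, 14.54 and 13.90 in KO neutrophils, and rose by 1.12 (adjusted p = 0.00391). Psmd8, a lid subunit, measured 13.29, 13.22, 12.37 and 11.99 against 13.84, 13.72, 13.74, 13.87 and 13.47, and rose by 1.01 (adjusted p = 0.00155).

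Several partners of the proteasome were higher in KO neutrophils too. Of 5 core assembly chaperones 3 rose: Psmg2 by 2.60 log2 units, Psmg4 by 1.79 and Pomp by 1.13 (limma adjusted p = 0.000137, 0.00014 and 0.00363). With the covariate they measured 1.87, 1.07 and 0.10 and none passed (adjusted p = 0.104, 0.166 and 0.939), and in the fit on neutrophil arrays alone Pomp did not pass (adjusted p = 0.081). Of 5 activator and inhibitor genes 1 rose, Psme2 by 0.69 (limma adjusted p = 0.0208), which did not pass in 4 of 9 fits with a single neutrophil array left out. Of 10 other subunits and partners 4 rose, among them the ubiquitin shuttle factor Rad23b (1.30), the ubiquitin ligase Ube3c (1.34) and Txnl1 (0.90), and Zfand5 fell by 0.62 (adjusted p = 0.0152). Of the 3 transcription factors and processing enzymes measured for proteasome genes 0 passed, Nfe2l1 standing at 0.37 (adjusted p = 0.238), and 0 had an unadjusted p under the threshold of 0.05.

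Of 11 MHC class I presentation genes 5 rose in KO neutrophils: the chaperones Calr (1.91 log2 units), Canx (1.43) and Pdia3 (1.08), the peptide trimmer Erap1 (1.30) and B2m (0.60). Tap1 was higher by 0.63 and did not pass (limma adjusted p = 0.232). Of 8 interferon gamma pathway genes the transcription factor Irf8 rose by 1.95 (limma adjusted p = 5.46e-05), while Irf2 fell by 1.36 and Jak2 fell by 0.64 (adjusted p = 0.000258 and 0.027). Jak2 did not pass in 4 of 9 fits with a single neutrophil array left out. Irf1, which activates immunoproteasome genes, stood at -0.78 (adjusted p = 0.0645). Markers of other cells moved with these changes. Of 10 macrophage markers 4 were called higher in KO neutrophils, Ms4a7 (2.08), Ccr2 (2.08), Adgre1 (1.72) and Lyz2 (1.43), with 0 called lower. The others did not pass and were split: Chil3 (-1.52), Plac8 (-1.13) and Ly6c2 (-0.69) lay lower, and Arg1 (0.84), Fn1 (0.61) and Mrc1 (0.18) higher. The mean of all 10 was 12.59 to 13.38 log2 units in WT and 13.12 to 13.77 in KO neutrophil arrays. Of 9 neutrophil markers 1 was lower, Retnlg (-1.98, limma adjusted p = 0.0451), and 0 higher, while Cxcr2 at -0.74 did not pass, and their mean was 13.13 to 16.3 in WT and 12.61 to 14.09 in KO arrays. Of 7 connective tissue markers 5 were lower, and their mean was 8.29 to 12.17 in WT and 7.08 to 8.64 in KO arrays. The part of these cells in the differences was not tested.

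In macrophages and microglia the genotypes did not separate the proteasome genes. Limma called 0 of 38 members in macrophages, where 0% of all clusters were higher and 0.00452% lower, and 0 of 38 in microglia, where 0% were higher and 0% lower. At an unadjusted p under 0.05 there was 1 member in macrophages (the lid subunit Psmd11, 0.59, unadjusted p = 0.0191) and 0 in microglia, beside 1029 and 646 of all clusters. Next in macrophages were Psmd7 (-0.48) and Psmb1 (-0.33), and in microglia Psmb9 (0.46), Psma8 (-0.43) and Psmb8 (0.15), none past the threshold.

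Median differences of the members were -0.08 log2 units in macrophages and 0.03 in microglia. The intervals bound what could have been missed. For Psmb9 the 95% interval of KO minus WT was -0.94 to 0.56 in macrophages and -0.15 to 1.07 in microglia, where KO microglia 2, the array with the highest neutrophil markers, held the highest Psmb9 value, 12.94. For Psmb10 it was -0.80 to 0.67 and -0.37 to 0.84, and for Psmb8 -0.45 to 0.38 and -0.19 to 0.49. For Psmb6 it was -0.71 to 0.49 and -0.48 to 0.50, and for Psmb7 -0.73 to 0.42 and -0.28 to 0.66.

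Whether the change with genotype differed between cell types was tested directly. Between neutrophils and microglia 4 of 38 members differed, each with the larger KO increase in neutrophils, against 4.06% of all clusters called in that direction (1.73% in the other) and 17.5% of the broadly expressed ones. They were Psmd1 (2.16 log2 units, limma adjusted p = 0.0119), Psmd2 (1.81, adjusted p = 0.00557), Psmb6 (1.59, adjusted p = 0.00884) and Psmd8 (0.97, adjusted p = 0.0392). Between neutrophils and macrophages 6 of 38 differed the same way, against 4.36% of all clusters (2.51% in the other direction) and 17.2% of the broadly expressed ones. Psmd2 (2.18, adjusted p = 0.00417) and Psmb6 (1.71, adjusted p = 0.0118) were again among them, with the ATPase Psmc5 (1.38, adjusted p = 0.0392) and the structural beta genes Psmb4 (1.36, adjusted p = 0.0342), Psmb3 (1.33, adjusted p = 0.036) and Psmb1 (1.16, adjusted p = 0.0188). These comparisons share the neutrophil arrays. Psmb6, Psmd1 and Psmd2 passed against microglia, and Psmb1, Psmb6 and Psmd2 against macrophages, with each array of the compared cell types left out in turn. Against microglia Psmd8 did not pass in 12 of 21 such fits, for example at 0.73 without WT neutrophil 4 (limma adjusted p = 0.114). Against macrophages Psmc5 did not pass in 13 of 18 such fits, Psmb4 in 9 and Psmb3 in 8. With the level of the broadly expressed clusters as a covariate, under the limit given above, 0 members passed in either comparison. Against microglia Psmb6 then measured 0.74 (adjusted p = 0.43), Psmd1 1.10 (adjusted p = 0.444) and Psmd2 0.86 (adjusted p = 0.34).

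The counts moved with single arrays, and are given here without the share of all clusters in each fit. Without WT neutrophil 1 they became 17 against microglia and 18 against macrophages, and without KO neutrophil 5 they became 15 and 19. Without WT microglia 1 or KO microglia 2 the count against microglia was 7. Against macrophages it was 10 without WT macrophage 1, and 3 without WT neutrophil 4, KO neutrophil 1, 3 or 4, WT macrophage 2 or 3, or KO macrophage 1. Between macrophages and microglia 0 of 38 differed, where 0% of all clusters were called, and 1 member, Psmd11 (0.65), had an unadjusted p under 0.05.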

How the data were processed

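Expression was measured on 30 Affymetrix Clariom HT arrays. For all samples the labels give 0.6 to 0.8 ng of RNA and an RNA integrity number of at least 7.5, without values per sample. The authors deposited one normalized intensity per transcript cluster and array, on a linear scale, made with RMA per the submitters' processing notes, whose version and annotation are not given in the sources used here. Values of 22103 clusters (5.62 to 438297) were taken to log2 with no pseudocount. Clusters were named from the platform annotation: 19508 had 1 gene symbol and 2595 were not named here. For each gene the brightest cluster was used.

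A limma model (version 3.58.1, R 4.3.3) with 6 group means was fitted on all arrays, and p-values were Benjamini-Hochberg adjusted over all clusters in each comparison, with calls at 0.05. Adjusted p-values in the text are from it, and all tests are two-sided. The script was tested on simulated data. Nothing says whether samples came from separate animals beyond the label of biological replicate, so p-values rest on the spread between these samples. Spread was estimated once per cluster over all 6 groups, so SEs and p-values for neutrophils borrow the spread of the other cells. Members varied most in WT neutrophils (median SD 0.57 log2 units, against 0.2 in KO macrophages). Precision is limited by the number of arrays. No array stood for a repeat of another (highest correlation within a group 0.9895).

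The members, gene lists and tests were chosen with earlier results of these data known. Genes named were Psmb6 to Psmb10 in every comparison, up to 6 members with the biggest rise and 6 with the biggest fall among those called, the 3 of smallest p where none was called, and up to 4 genes of smallest p of each other list. Other genes, among them Tap1, Psme1, Psme2, Pomp, Irf1, B2m, Psmb2 and Psmb3, were chosen after their values were seen. Alternatives covered normalization, array weights, filters, arrays left out, and the level of broadly expressed clusters as a covariate. Member counts under them are given without the share of all clusters called in the same fit, so they show only how the members' calls moved.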

Additional observations from a re-analysis of the deposited data

Results flagged for a closer look

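In 23 of 195 groups of values tested, from the 38 genes and the immune minus standard index, 1 array lay farther from the rest than Dixon's 95% limit allows, where chance gives about 1 in 20 groups. WT macrophages, with 3 arrays, were not tested this way. The array was KO neutrophil 5, the lowest of its group, in 10 of the 23: Psma1 at 13.59 log2 units, Psma6 at 13.93, Psmb4 at 13.88, Psmb7 at 12.06, Psmc1 at 12.17, Psmc4 at 12.54, Psmc5 at 11.95, Psmc6 at 12.08, Psmd3 at 10.36 and Psmd9 at 8.91. In WT neutrophils, array 4 was far below the others for Psma5 (11.91) and the chaperone Psmd10 (5.10), and array 1 was far above for Psmd7 (11.70).

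Among immune subunits, Psmb8 stood apart in WT microglia 6 (12.98), Psmb9 in WT microglia 3 (10.40) and Psmb10 in KO microglia 2 (10.78), the array with the highest neutrophil markers. The remaining single arrays were WT microglia 1 for Psma3 (15.20), WT microglia 4 for Psmd3 (12.30), KO microglia 3 for Psmd8 (13.41), KO microglia 6 for Psmc4 (12.96) and Psmd3 (11.67), KO macrophage 1 for Psmb2 (15.76) and KO macrophage 3 for Psmc1 (13.80).

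The change from WT to KO differed between cell types, by limma's interaction test, for 4 genes between neutrophils and microglia: Psmd1 (2.16), Psmd2 (1.81), Psmb6 (1.59) and Psmd8 (0.97). It differed for 6 between neutrophils and macrophages: Psmd2 (2.18), Psmb6 (1.71), Psmc5 (1.38), Psmb4 (1.36), Psmb3 (1.33) and Psmb1 (1.16).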

How the results depend on the processing

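Psmb8, Psmb9 and Psmb10 stayed higher in macrophages than in microglia, in both genotypes, under each alternative run. The broad level as covariate changed most, and its values do not overlap between neutrophil arrays (12.41 to 13.21) and the others (13.26 to 13.48), so comparisons with neutrophils extrapolate. With it, KO against WT neutrophils gave 0 members higher, with Psmb7 at -0.45, Psmb9 at -0.40, Psmb10 at -0.11, Psmd6 at -0.02 and Psma5 at -0.26, and Psmb6 in microglia stood at -0.05. WT neutrophils against microglia gave 7 higher and 0 lower (Psmb7 0.90, Psmb9 1.22, Psmb10 0.85, Psmd12 0.03, Psmd6 0.44), and against macrophages 5 higher and 0 lower (Psmb6 0.14, Psmb7 0.78, Psmd10 4.16, Psmd6 0.56). KO neutrophils against microglia gave 10 higher and 0 lower (Psmb6 0.36, Psmb7 0.33, Psmb9 0.43, Psmb10 0.61), and against macrophages 8 higher and 2 lower (Psmb7 0.44, Psmd14 0.23). Macrophages against microglia gave 5 lower in WT, and 5 higher and 5 lower in KO mice. The genotype change differed for 0 members between neutrophils and microglia (Psmb7 -0.57, Psmb8 -0.03, Psmb9 -0.79, Psmb10 -0.25) and 0 between neutrophils and macrophages (Psmb7 -0.34, Psmb9 -0.25, Psmb10 -0.10). Of called genes in related lists, whose alternatives were added after seeing the data, it turned Txnl1 in KO against WT neutrophils (-0.03), Psme1 (0.17), Txnl1 (0.43) and Psme4 (0.31) in WT neutrophils against microglia, Psme1 (0.05), Psme2 (0.13) and Txnl1 (0.39) in WT neutrophils against macrophages, and Pomp in KO neutrophils against microglia (0.01). Beyond the construction of that covariate, the cause was not tested.

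With only the arrays compared, 3 members were higher in KO neutrophils (0 in that fit without WT neutrophil 4, an alternative chosen after seeing the data) and 5 lower in KO macrophages than microglia. Quantile normalization over all arrays gave 1 lower in WT and 4 in KO macrophages than microglia, and 6 lower in KO neutrophils than microglia and 4 than macrophages. Within cell types it gave 3 lower in KO macrophages, and under both Psmb6 in KO against WT microglia was 0.00. Median centring gave 1 higher in WT neutrophils than microglia, 11 higher and 1 lower in WT and 6 higher and 0 lower in KO macrophages than microglia (Psmb7 0.24), 4 lower in KO neutrophils than microglia, and 11 genotype changes between neutrophils and macrophages. Array weights gave 1 and 4 lower in WT and KO macrophages than microglia, and 11 and 16 genotype changes of neutrophils against microglia (Psmb9 -0.01) and macrophages. A trended, robust prior gave 1 and 2 lower in WT and KO macrophages. Leaving out the dimmest 25% of clusters gave 10 genotype changes between neutrophils and macrophages. Without KO microglia 2 and 4, chosen after seeing the data, Psmb6 was -0.14 in KO against WT microglia and 0.03 in the genotype change of macrophages against microglia, 6 members were lower in KO neutrophils than microglia and 0 in KO macrophages. Replicate numbers did not pair the samples (correlations -0.2 to 0.26), and with the replicate block 23 members were higher in KO neutrophils, 3 genotype changes passed between neutrophils and macrophages and Psmb10 in KO against WT macrophages was 0.06.

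With each array left out in turn, members lower numbered 1 to 3 in WT and 1 to 3 in KO macrophages against microglia (1 in WT without WT macrophage 1 or WT microglia 1, 3 or 6) and 7 to 14 in KO neutrophils against microglia (7 without KO neutrophil 5). Members higher in KO neutrophils numbered 16 to 28, and genotype changes 3 to 17 against microglia and 3 to 19 against macrophages. Differences of KO against WT ran from -0.41 to 0.14 for Psmb6, -0.17 to 0.08 for Psmb8 and -0.22 to 0.05 for Psmb10 in macrophages, and from -0.09 to 0.11 for Psmb6 in microglia. Genotype changes ran from -0.25 to 0.59 for Psmb9 between neutrophils and microglia and from -0.42 to 0.13 for Psmb6 between macrophages and microglia. Apart from the alternatives' own construction, the cause of these changes was not tested.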
